A study of Mus musculus with 4 samples.

Results

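The CCN family is a small group of secreted matricellular proteins, which sit in the extracellular matrix and signal to cells without forming its scaffold. Its members here were the 5 genes named in the deposited gene table as Ccn1, Ccn2, Ccn3, Ccn4 and Ccn5, of 32285 genes in all. They were chosen by symbol and not by a cut on measured values, but with earlier results of these data known. Their older names are Cyr61, Ctgf, Nov, Wisp1 and Wisp2. The sixth gene of the family, Ccn6, was detected with 4, 5, 3 and 0 UMIs in the 4 sections and was too low to test. By the RefSeq table of GRCm38.p6, the assembly behind mm10, Ccn1 lies at chr3:145646971-145649985, Ccn2 at chr10:24595442-24598683, Ccn3 at chr15:54745910-54753762, Ccn4 at chr15:66891369-66923201 and Ccn5 at chr2:163820752-163833146.

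CCN proteins are built from modules that bind insulin-like growth factors, bone morphogenetic proteins, proteoglycans and integrins, and CCN5 differs from the others in lacking the C-terminal cystine-knot module. Ccn1 and Ccn2 are textbook target genes of the mechanically regulated coactivators YAP and TAZ, and both are also induced rapidly by serum and growth factors. Ccn2 is a known mediator of TGF-beta driven scarring and is used to drive tendon progenitor cells towards a tenocyte state. Ccn4 was first described as a Wnt-induced gene, and Ccn3 and Ccn5 are often described as counteracting Ccn2.

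The samples were 4 Visium sections of 10 µm through the injured Achilles tendon of mice aged 12 weeks, taken 14 days after a punch of 0.5 mm through the tendon about 2 mm from its insertion into the heel bone. The 2 sections called WT here came from TrkA WT mice labelled as control, and the 2 called F592A from mice with the TrkA F592A substitution that received 1NMPP1. The F592A receptor can be inhibited by 1NMPP1, and the comparison addresses how the healing tendon differs when neuronal TrkA is inhibited. Genotype and drug changed together, and whether the WT mice were given the drug is not stated. The study pooled 4 mice per genotype, of both sexes, and no label ties a section to an animal. The p-values for F592A against WT therefore measure only the spread between sections, part of which may be technical. Those that compare spot classes, defined below, measure the scatter of class sums after section differences are taken out.

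The libraries held 30154873 to 43957617 UMIs, and 10649 spots with at least 500 UMIs were kept, 2024 to 3043 per section. A spot covers several cells, so in every value below fewer cells of a type and less RNA per cell cannot be told apart. WT 2 stood apart from the other sections in sex-linked RNA, with 4207 Xist UMIs against 7 to 12 and 23 UMIs of Y-linked genes against 7522 to 7918. This is the RNA pattern of female tissue in WT 2 and of male tissue in the other sections. Sex was therefore not balanced between the groups. The tissue also differed: spots led by tendon markers were 3.61% and 21.5% of the WT sections but 3.11% and 0.837% of the F592A sections, and spots led by embryonic muscle markers numbered 433 and 100 against 11 and 2. The tendon marker Tnmd was at 1194, 1246, 654 and 348 CPM (UMIs of a gene scaled to the total of its section or class, as the usual depth-corrected level) in WT 1, WT 2, F592A 1 and F592A 2. The part of these differences in the whole-section results was not tested directly, but each CCN gene was also measured within spots led by the same marker list. For this, each spot was given the class of the marker list on which it scored highest, if that score was at least 1 SD above the mean of all spots. This placed 10063 spots in 15 classes, with no CCN gene on any list, and 11.6% of all spots lay within 0.25 SD of the cut. In 20.3% of the classed spots the best 2 lists were less than 0.25 SD apart. A class name such as "scar fibroblast-list" refers to its leading markers and not to pure cells. RNA of other tissues still differed within classes, by log2 fold changes of F592A over WT. The slow muscle gene Myh7 was at -2.91 in scar fibroblast-list and -2.44 in endothelium-list spots, and the keratin gene Krt77 at 3.32 in adipose-list spots. The part of this in the CCN results was not tested.

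Ccn1 was low in fast muscle and skin and high in dense connective tissue. In cartilage-list spots, led by Acan, Col2a1 and Sox9, it measured 129, 99.6, 336 and 296 CPM in WT 1, WT 2, F592A 1 and F592A 2. In fast muscle-list spots it measured 24.6, 30.8, 66.0 and 47.2 CPM, below cartilage-list spots in every section. Compared with the mean of the other tested classes, with the section as a block, Ccn1 was higher in cartilage-list spots by 0.88 ± 0.14 (log2, SE), in scar fibroblast-list spots by 0.70 ± 0.15 and in sheath fibroblast-list spots by 0.53 ± 0.15. The adjusted p-values from edgeR's quasi-likelihood test were 7.6e-06, 0.00012 and 0.0041. It was lower by edgeR's test in epidermis-, hair follicle- and fast muscle-list spots, with log2 differences of -0.99, -1.03 and -1.03. Of all 13570 genes tested, 16.2% were higher in cartilage-list spots, 22.3% in scar fibroblast-list spots and 18.3% in sheath fibroblast-list spots, and 23.1%, 26.9% and 29.3% were lower in the 3 classes where Ccn1 was lower. Tendon-list spots, which were too few in F592A 2 (23) to enter that test, had Ccn1 at 118, 115, 402 and 337 CPM, above cartilage-list spots in 3 of 4 sections.

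Ccn2 followed a partly similar map. Cartilage-list spots held 472, 202, 589 and 746 CPM and tendon-list spots 425.5, 249, 634 and 732 CPM, with each class above the other in 2 of 4 sections, so their order is not resolved. Fast muscle-list spots were at the other end with 109, 124, 104 and 102 CPM. The cartilage-list excess was 0.99 ± 0.21 on the log2 scale (edgeR adjusted p = 0.00025). Ccn2 was lower in epidermis-list spots by -0.80 ± 0.27 and in slow and fast muscle-list spots by -0.68 ± 0.26 and -0.62 ± 0.25, with edgeR adjusted p-values of 0.013, 0.030 and 0.033. Among all genes 24.9% were lower in slow muscle-list spots, where Ccn1 was not called (-0.20 ± 0.18, edgeR adjusted p = 0.401). The values for mural-, sheath fibroblast- and scar fibroblast-list spots averaged 374, 366 and 364 CPM over the 4 sections. Their SDs of 134, 149 and 252 include the difference between the groups. Mural-list spots were above sheath fibroblast-list spots in 2 of 4 sections, and sheath above scar fibroblast-list spots in 2 of 4, so this order is not resolved either.

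Ccn4 was highest in scar. Scar fibroblast-list spots, led by Postn, Tnc and Cthrc1, held 346, 153, 195 and 236 CPM of Ccn4, above tendon-list spots at 188, 97.6, 128 and 136 CPM in every section. The excess over the other classes was 1.90 ± 0.16 on the log2 scale (edgeR adjusted p = 1.3e-12). Ccn4 was also higher in cartilage-list spots by 1.02 ± 0.17 and in macrophage-list spots by 0.45 ± 0.18, where 20.8% of all genes were higher. It was lower in epidermis-, hair follicle-, fast and slow muscle-list spots, down to -1.20 ± 0.28 in slow muscle. Scar fibroblast-list spots were 3.38%, 2.42%, 5.96% and 5.97% of the spots of the 4 sections. They held 11.5%, 4.59%, 17.8% and 11.7% of all UMIs and gave 26.9%, 7.95%, 30.1% and 28.1% of the Ccn4 UMIs. The low share was in WT 2, which also had the fewest such spots (49).

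Ccn3 and Ccn5 were placed differently, around vessels, macrophages and the loose tissue of the sheath. Ccn3 exceeded the other classes in mural-list spots by 1.74 ± 0.20, in macrophage-list spots by 1.27 ± 0.19, in sheath fibroblast-list spots by 1.13 ± 0.20 and in endothelium-list spots by 0.80 ± 0.20, and edgeR's test called each of these. Among all genes 4.35% were higher in mural-list spots and 11.6% in endothelium-list spots. The mural value varied from section to section, with 232, 809, 745 and 256 CPM: WT 2 and F592A 1 were high, WT 1 and F592A 2 low, and the groups overlapped. Ccn5 had its highest mean over the 4 sections in macrophage-list spots, at 200, 113, 171 and 231 CPM, although endothelium-list spots were higher in WT 1 (205 CPM) and mural-list spots in WT 2 (179 CPM). It exceeded the other classes there by 1.47 ± 0.19 (edgeR adjusted p = 3.1e-08). It was also called higher in endothelium-, mural- and sheath fibroblast-list spots, by 1.03, 0.94 and 0.88. In adipose-list spots the Ccn5 difference was 0.70 ± 0.24 and missed the threshold (edgeR adjusted p = 0.064), in a class where 6.74% of all genes were called higher and 1.09% lower. Both genes were called lower in the epidermis-, hair follicle-, fast and slow muscle-list classes, as Ccn4 was. The steepest of these differences was that of Ccn5 in slow muscle-list spots, -1.77 ± 0.36. In scar fibroblast-list spots Ccn5 was 40.5, 61.4, 75.5 and 83.0 CPM, and neither Ccn3 (0.08 ± 0.22) nor Ccn5 (-0.02 ± 0.23) passed the test there. None of the 5 genes was called higher in epidermis-, fast muscle- or hair follicle-list spots, where edgeR called 26.6%, 28% and 31.3% of all genes higher. None was called lower in scar fibroblast-, endothelium- or mural-list spots, where 25.7%, 7.85% and 0.833% of genes were lower.

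**Figure D1:**
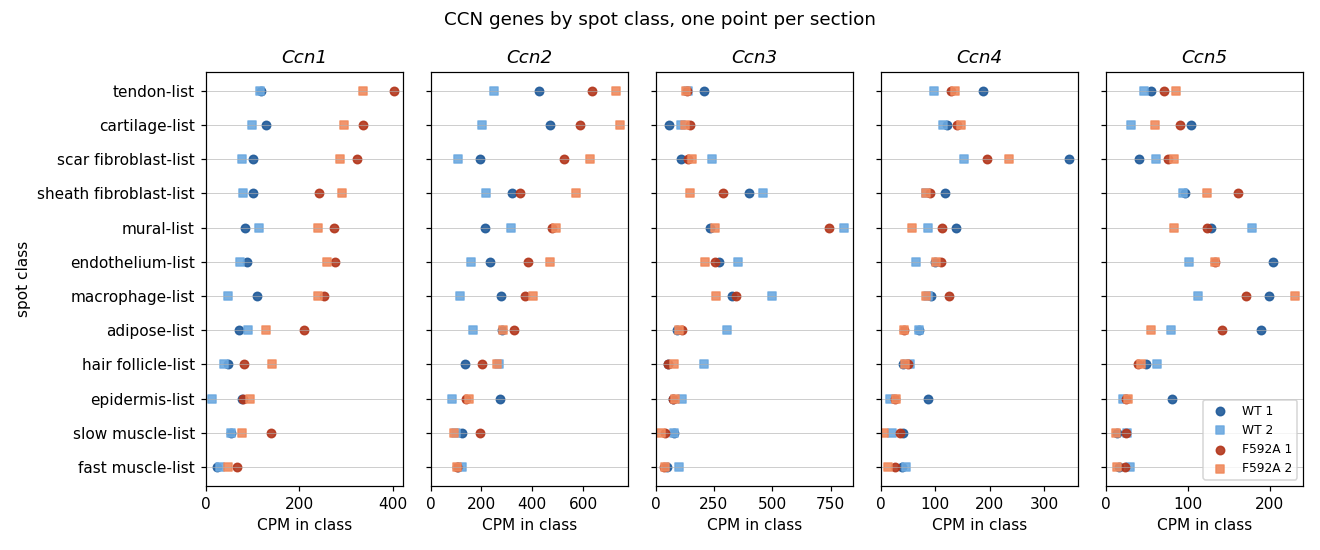
CPM (horizontal axis) of each CCN gene in 12 spot classes (rows) with 1 point per section, circles and squares marking sections 1 and 2 of WT (blue) and F592A (red). Ccn4 is highest in scar fibroblast-list spots, Ccn3 and Ccn5 have their highest means in mural- and macrophage-list spots with an order that varies between sections, and the F592A points of Ccn1 lie right of the WT points in each class shown.

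The genes whose levels most resembled each member were sought among 9870 genes over 55 sums of section and class. Ccn1 and Ccn2 resembled each other, with a Pearson correlation of 0.86 on log2(CPM + 1). That made Ccn2 the nearest gene to Ccn1, and the transcription factor gene Cebpd (0.81) was also among the 3 nearest. Ccn1 was likewise the nearest gene to Ccn2, and the prostacyclin synthase gene Ptgis (0.84) was also among the 3 nearest. The nearest genes to Ccn4 were Tnc, Thbs2 and Postn (each 0.94), of which Tnc and Postn are on the scar fibroblast list itself. For Ccn3 they were the fibril-associated collagen gene Col14a1 (0.87), the TGF-beta receptor gene Tgfbr2 (0.84) and Vwa5a (0.84). For Ccn5 they were the Wnt antagonist gene Sfrp2 (0.90), the complement gene Cfb (0.89) and Tspan11 (0.88). These sums share sections and depth, so the correlations are descriptive.

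Within single sections, Ccn1 and Ccn2 also shared spots. With counting error removed, their same-spot correlation ranged from 0.60 to 0.70 over the 4 sections. No other pair reached the lowest of these values in any section. Ccn4 and Ccn5 tended to be in different spots, with correlations from -0.40 to -0.21, and Ccn3 and Ccn4 gave -0.24 to -0.06. The pairs Ccn2 and Ccn4 (-0.06 to 0.58) and Ccn3 and Ccn5 (0.04 to 0.46) varied widely between sections, with the lowest value in WT 1 for each. These correlations are relative to the total UMIs of a spot and share its library, and they carry no test.

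**Figure D2:**
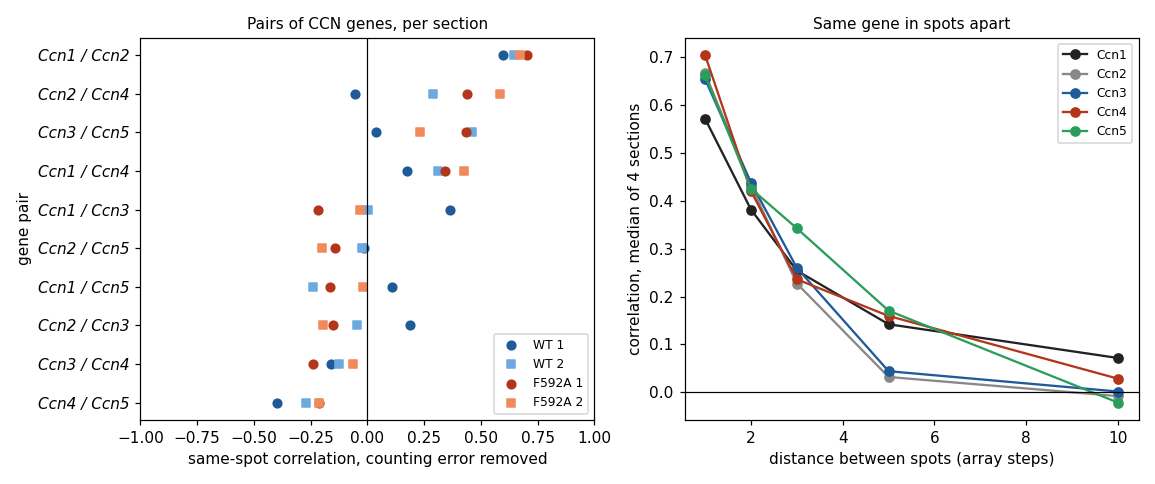
Left, same-spot correlation of each pair of CCN genes after removal of counting error, 1 point per section; right, median correlation over the 4 sections of a gene with itself in spots 1 to 10 array steps apart. The Ccn1 and Ccn2 pair lies at 0.60 to 0.70 in all sections, the Ccn4 and Ccn5 pair lies below 0, and the medians of all 5 genes are 0.07 or less at 10 steps.

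The genes were patchy. Neighbouring spots, 1 step apart, correlated with medians of 0.57 for Ccn1, 0.67 for Ccn2, 0.65 for Ccn3, 0.70 for Ccn4 and 0.66 for Ccn5, and by 10 steps the medians were 0.07 or less. Single sections reached further: at 5 steps the correlation was 0.58 for Ccn4 in WT 1, 0.54 for Ccn1 in F592A 2 and 0.46 for Ccn2 in F592A 2, and Ccn1 in F592A 2 was still at 0.21 at 10 steps. Spot-to-spot variation beyond counting error was 49.2% to 73.5% of the mean for Ccn1 and 90.9% to 164% for Ccn5. Going outward from tendon-list spots to spots 6 or more steps away, Ccn1 dropped in each section: from 118 to 68.4 CPM in WT 1, from 115 to 53.7 in WT 2, from 402 to 183 in F592A 1 and from 337 to 188 in F592A 2. Ccn2 dropped likewise in the 4 sections, from 425.5 to 181, 249 to 140, 634 to 318 and 732 to 389.5 CPM. Ccn5 went the other way in 3 of 4 sections, from 54.8 to 106, 46.9 to 107 and 70.9 to 106 CPM, but from 85.3 to 75.8 in F592A 2, which had the fewest tendon-list spots (23).

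**Figure D3:**
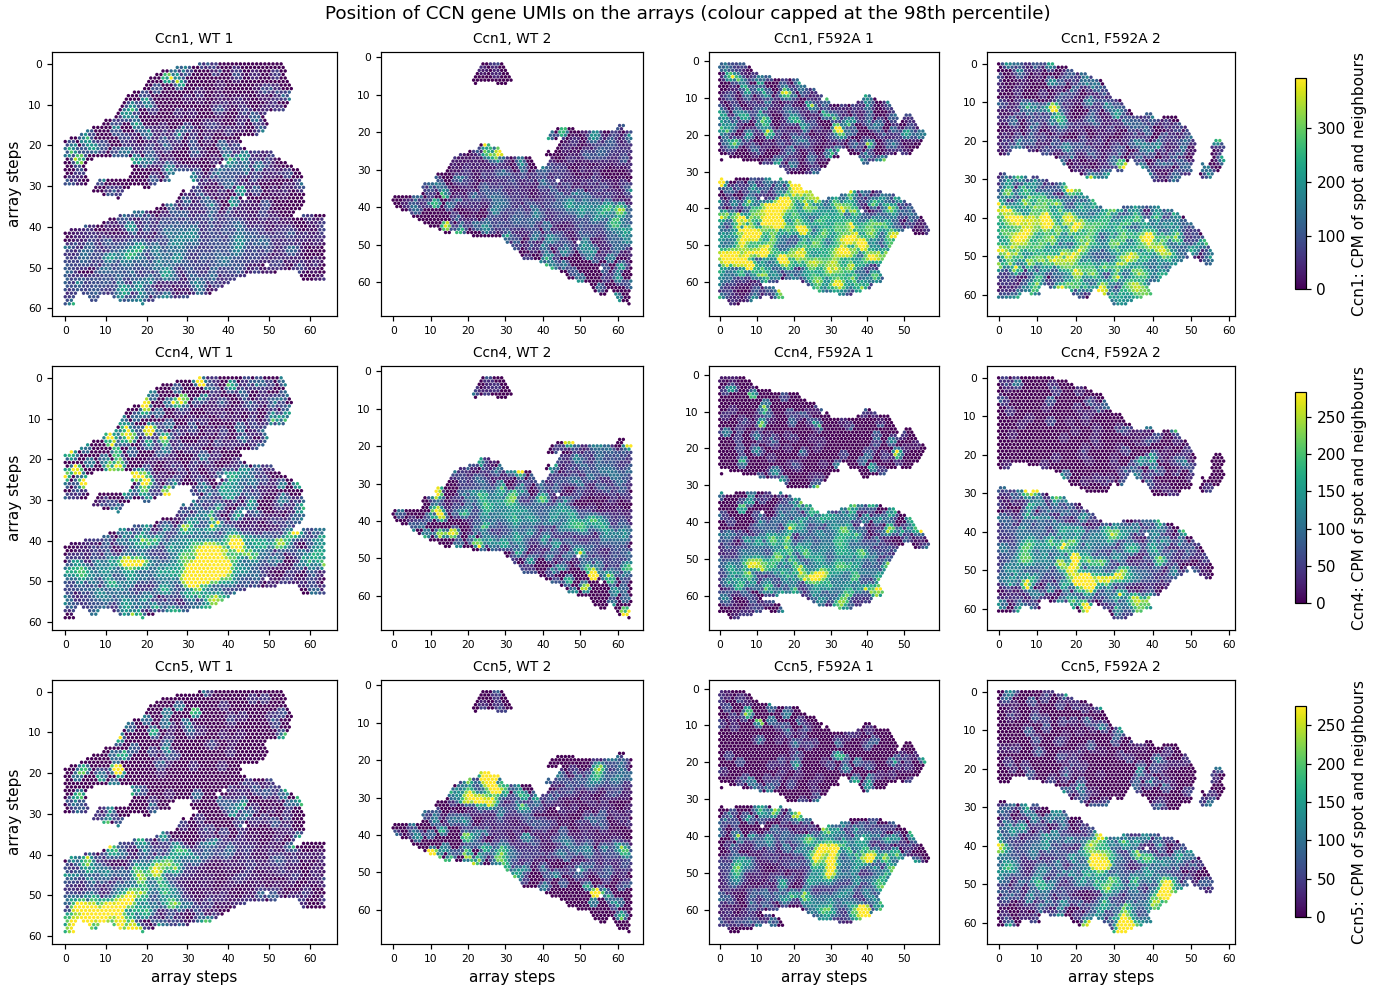
Position of Ccn1, Ccn4 and Ccn5 on the arrays of the 4 sections; axes are array steps and colour is the CPM of each spot summed with its direct neighbours, on 1 scale per gene. Ccn4 and Ccn5 form separate patches, and Ccn1 is brighter across the connective tissue of both F592A sections than in either WT section.

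Against this map, F592A sections had more Ccn1 than WT sections. The whole-section level was 88.5 and 89.1 CPM in WT 1 and WT 2 and 262 and 221 CPM in F592A 1 and F592A 2 (TMM-scaled, from 3851, 2601, 11364 and 8427 UMIs). Both F592A sections lay far above both WT sections. The log2 fold change was 1.44 ± 0.12 (SE, n = 2 sections per group) with an edgeR quasi-likelihood adjusted p of 0.0491, and Ccn1 ranked 9 of 16347 genes by p. It was the only CCN gene among the 13 genes past the threshold (0.0795% of those tested, 0.0306% higher and 0.0489% lower). The call is close to the threshold: with a replicate block, whose numbers have no stated meaning, the edgeR adjusted p was 0.124, with RLE scaling 0.0556, and without F592A 1 or F592A 2 it was 0.29 and 0.42, while without WT 1 or WT 2 it was 0.0041 and 0.0045. The fold change itself stayed between 1.32 and 1.56 over these and the other alternatives.

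The promoter of Ccn1 is the single CCN promoter among the reference sequences used here and is shown because Ccn1 is the member that passed the test. It is the 250 bases before the start of the gene, chr3:145649986-145650235, minus strand, GRCm38.p6, from RefSeq. Capitals mark, in this order, a TEAD motif (GGAATG, on the opposite strand), a cyclic AMP response element core (TGACGT, opposite strand) and a TATA box (TATAAA).
Ccn1: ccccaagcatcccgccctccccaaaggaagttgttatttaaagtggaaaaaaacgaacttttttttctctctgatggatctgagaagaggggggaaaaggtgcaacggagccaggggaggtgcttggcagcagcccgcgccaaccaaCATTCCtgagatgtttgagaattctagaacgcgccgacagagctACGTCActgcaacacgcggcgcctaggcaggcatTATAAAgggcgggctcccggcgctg
The 3 matches lie 103, 59 and 25 bases before the start, counted to the base of each match farthest from it, and do not overlap. Searching both strands of 32851 mouse promoters of the same length, the TEAD motif was present in 12.6%, the TGACGT core in 6.47% and TATAAA in 12.4%. Neither AP-1 (TGANTCA, in 6.75%), SMAD (CAGACA, in 17.1%) nor the CArG box (in 1.47%) was found in these 250 bases. TEAD factors carry YAP and TAZ on DNA, and the cyclic AMP response element binds CREB-type factors. The matches describe letters in this window and not occupied sites.

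Ccn2 was higher in the F592A sections too, without passing the test. Its level was 236 and 200 CPM in the WT sections and 415 and 456 CPM in the F592A sections, with no overlap between the groups. The log2 fold change was 1.00 ± 0.14 (SE) with an edgeR adjusted p of 0.137. DESeq2 gave 1.00 with an adjusted p of 1.1e-09, and the edgeR fold change ran from 0.89 to 1.12 when 1 section was left out. Ccn5 showed a smaller difference of 0.49 ± 0.12, from 79.1 and 67.7 CPM in WT to 107 and 98.9 CPM in F592A, again without overlap (edgeR adjusted p = 0.243; DESeq2 adjusted p = 0.0304). In all, 3 of the 5 genes had both F592A sections above both WT sections, where 21.7% of all genes did.

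Ccn3 and Ccn4 overlapped between the groups. Ccn3 was at 187 and 266 CPM in the WT sections and 216 and 144 CPM in the F592A sections, a log2 fold change of -0.33 ± 0.25 (edgeR adjusted p = 0.665). Ccn4 was at 145 and 91.3 CPM against 117 and 95.3 CPM, a log2 fold change of -0.16 ± 0.23 (edgeR adjusted p = 0.842). WT 1 was the highest section for Ccn4, and without it the sign turned to 0.22.

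**Figure D4:**
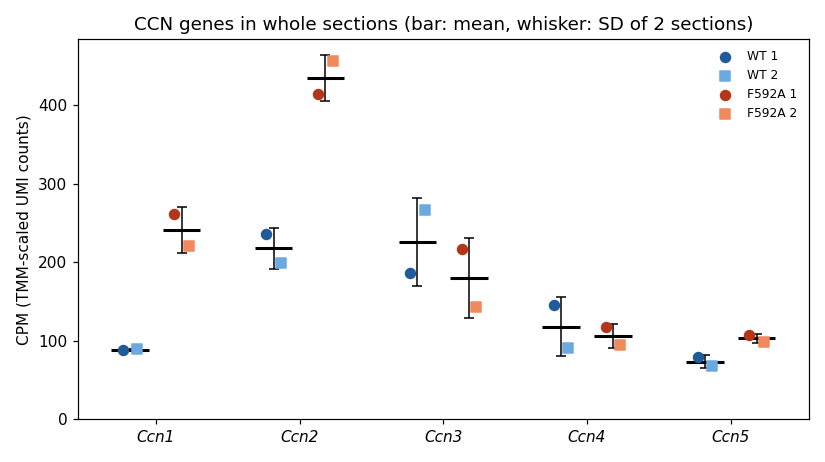
TMM-scaled CPM (vertical axis) of the 5 CCN genes in whole sections, points for sections, bars for the mean and whiskers for the SD of 2 sections, WT in blue and F592A in red. The groups are apart for Ccn1, Ccn2 and Ccn5 and overlap for Ccn3 and Ccn4.

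The Ccn1 difference recurred inside the spot classes. In CPM of the class, both F592A sections lay above both WT sections in 11 of 11 tested classes, with ratios of the group means from 1.90 in epidermis-list spots to 3.42 in scar fibroblast-list spots. Among all genes with at least 20 UMIs, 12.9% to 26.7% were apart in this direction in a single class, depending on the class. The classes are parts of the same 4 sections and not independent repeats. The share of genes apart in all 11 was not counted. With TMM scaling 10 of the 11 classes were apart: in epidermis-list spots the WT sections were then at 84.8 and 13.4 CPM and the F592A sections at 77.9 and 91.8 CPM. EdgeR's test called Ccn1 in 3 classes. In scar fibroblast-list spots it rose from 100 and 78.0 CPM to 322 and 287 CPM, a log2 fold change of 1.71 ± 0.16 (edgeR adjusted p = 0.0044; 0.209% of genes were called higher there). In endothelium-list spots it rose from 88.7 and 73.2 CPM to 276 and 260 CPM, by 1.75 ± 0.18 (edgeR adjusted p = 0.0055; background 0.0251%). In sheath fibroblast-list spots it rose from 100 and 80.7 CPM to 242 and 292 CPM, by 1.56 ± 0.16 (edgeR adjusted p = 0.0123; background 0.0402%). All 7 endothelium-list markers had lower whole-section levels in both F592A sections (median -0.33), and their part in the endothelium result was not tested. The endothelium call held when each section in turn was left out, while without F592A 1 the scar adjusted p was 0.103 and without F592A 2 the sheath adjusted p was 0.114. The median UMI count of a scar fibroblast-list spot was 51758, 20567, 24045 and 13836 in the 4 sections, and its part in the result was not tested.

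In the other 8 classes the fitted Ccn1 change was positive and missed the threshold. Few genes were called higher there by edgeR: 0.0207% in adipose-, 0.063% in fast muscle-, 0.0183% in hair follicle-, 0.0105% in mural- and 0.0129% in slow muscle-list spots, and 0% in cartilage-, epidermis- and macrophage-list spots. It was 1.66 ± 0.32 in macrophage-, 1.42 ± 0.18 in cartilage-, 1.41 ± 0.24 in mural-, 1.305 ± 0.33 in hair follicle-, 1.11 ± 0.28 in slow muscle-, 1.09 ± 0.33 in adipose- and 1.07 ± 0.23 in fast muscle-list spots. The smallest was 0.51 ± 0.53 in epidermis-list spots, where WT 2 had 3 Ccn1 UMIs: without WT 2 it was 0.027 and without WT 1 it was 2.66. Leaving out 1 section also moved the adipose value between 0.72 and 1.40 and the slow muscle value between 0.64 and 1.48. Tendon-list spots, fitted as an addition after the data were seen, gave 1.60 ± 0.18 (edgeR adjusted p = 0.0868), with F592A 2 represented by 23 spots. Whether the Ccn1 effect differed between classes was tested with the group by class terms of a joint edgeR fit, which gave an adjusted p of 0.796 and did not pass the threshold. That test called 3 of 13570 genes (0.0221%).

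Ccn2 had its largest fold change of the 11 classes in scar. In scar fibroblast-list spots it was at 194 and 107 CPM in the WT sections and 524 and 629 CPM in the F592A sections, a log2 fold change of 1.86 ± 0.24 (edgeR adjusted p = 0.0176). This was the only class in which Ccn2 passed the test, and without F592A 1 its adjusted p was 0.185. The groups were also apart and higher in F592A in 6 further classes, from 0.51 ± 0.34 in adipose-list to 1.13 ± 0.22 in endothelium-list spots. Among all genes with at least 20 UMIs, 13.5% (mural-list) to 24.7% (cartilage-list) were apart in this direction in these classes, which are parts of the same sections. The Ccn2 fold changes moved when 1 section was left out: without WT 2 and without WT 1 they were 0.18 and 0.92 in adipose-, 0.48 and 1.65 in cartilage- and 0.54 and 1.74 in macrophage-list spots. In sheath fibroblast-list spots the value was 0.41 without F592A 2 and 1.10 without WT 1. In endothelium-list spots it ran from 0.89 to 1.43 when 1 section was left out. The groups overlapped in epidermis- (-0.50 ± 0.49), hair follicle- (0.17 ± 0.37) and slow muscle-list spots (0.47 ± 0.31). In fast muscle-list spots the F592A sections were slightly below the WT sections, at 104 and 102 CPM against 109 and 124 CPM, a change of -0.15 ± 0.17 that did not pass. There 19.7% of genes were apart in this direction. The joint test of a difference between classes gave Ccn2 an unadjusted edgeR p of 0.0065 and an adjusted p of 0.320, so a difference between classes did not pass the threshold.

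**Figure D5:**
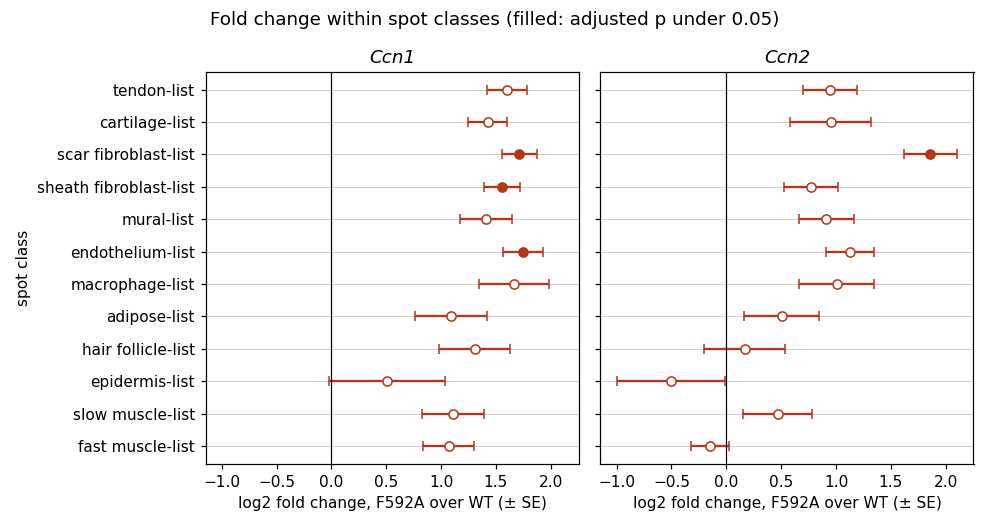
Log2 fold change of F592A over WT (horizontal axis, whiskers ± SE) of Ccn1 and Ccn2 within each spot class, filled where the edgeR adjusted p was under 0.05. Ccn1 is positive throughout, from 0.51 in epidermis-list to 1.75 in endothelium-list spots, while Ccn2 runs from -0.50 in epidermis-list to 1.86 in scar fibroblast-list spots; tendon-list spots were added after the data were seen.

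Ccn3, Ccn4 and Ccn5 passed edgeR's test in none of the 11 classes, and DESeq2 called none either. The share of all genes that edgeR called lower was 0.145% in scar fibroblast-, 0.099% in fast muscle-, 0.0837% in endothelium-, 0.0643% in slow muscle-, 0.0563% in sheath fibroblast-, 0.031% in adipose- and 0.00777% in macrophage-list spots, and 0% in the other 4. At an unadjusted edgeR p under 0.05, each had 3 classes, where 1.94% to 6.31% of all genes were higher and 1.77% to 6.32% lower, depending on the class. For Ccn3 these were all lower in F592A: slow muscle-list spots at -1.22 ± 0.29, sheath fibroblast-list spots at -0.98 ± 0.28 and fast muscle-list spots at -0.94 ± 0.26. In sheath fibroblast-list spots Ccn3 was at 402 and 458 CPM in WT and 290 and 148 CPM in F592A, without overlap. For Ccn4 they were epidermis-list spots (-1.38 ± 0.52), fast muscle-list spots (-1.05 ± 0.28) and adipose-list spots (-0.67 ± 0.29). For Ccn5 they were epidermis-list spots (-1.37 ± 0.48), scar fibroblast-list spots (0.68 ± 0.19) and sheath fibroblast-list spots (0.56 ± 0.17). The epidermis values of Ccn4 and Ccn5 rested on WT 1 and turned to 0.54 and 0.18 without it. Over the 11 classes the groups were apart higher and lower in 1 and 4 classes for Ccn3 (1 and 5 with TMM scaling), 2 and 2 for Ccn4 and 2 and 2 for Ccn5, where 12.9% to 26.7% of genes were apart higher and 13% to 29.7% lower.

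A level with equal weight on the 11 tested classes was also computed for each section. It leaves out tendon-, regenerating muscle-, myelin- and sebaceous-list spots and does not equalise make-up within a class. Ccn1 was then at 80.9, 65.8, 207.5 and 191 CPM in WT 1, WT 2, F592A 1 and F592A 2, a ratio of 2.73. Ccn2 was at 239, 169, 333 and 383 CPM, a ratio of 1.77. Both gave an exact two-sided permutation p of 0.3333, which is the smallest that 2 against 2 sections allow. Ccn5 was at 102, 72.6, 91.7 and 78.6 CPM, a ratio of 0.986 with overlapping groups (exact permutation p = 1), while within scar and sheath fibroblast-list spots its groups were apart with ratios of 1.56 and 1.49. The share of its UMIs that lay in macrophage-list spots was 24.2% and 19.6% in the WT and 29.97% and 36.6% in the F592A sections, and these spots held 9.74%, 11.4%, 18.6% and 16.2% of all UMIs. For Ccn3 and Ccn4 the ratios were 0.760 and 0.917, with exact permutation p-values of 0.667 and 1.

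Of the receptors that bind CCN proteins, 12 genes could be tested in whole sections. None passed edgeR's test or DESeq2's, 3 were higher and 0 lower at an unadjusted edgeR p under 0.05 (5.31% and 6.48% of all genes), and the median log2 fold change was 0.09 against -0.00034 over all genes. The 3 were Itgam, a leukocyte integrin subunit (0.39 ± 0.13), the fibronectin receptor subunit gene Itga5 (0.31 ± 0.11) and the heparan sulphate proteoglycan gene Sdc4 (0.26 ± 0.09). Among 6 genes of partners that CCN proteins bind, 3 had positive and 3 negative fold changes, with a median of 0.03 and a lowest value of -0.21. The vascular growth factor gene Vegfa was highest at 0.66 ± 0.11 (edgeR adjusted p = 0.174), Bmp4 was at 0.42 ± 0.23 and the cartilage proteoglycan gene Acan at 0.17 ± 0.19. DESeq2 called 1 of the 6 higher, Vegfa, where it called 1.31% of all genes higher and 1.27% lower.

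Genes of the Hippo pathway, which restrains YAP and TAZ, showed no common direction. None of 16 passed either test, 7 had a positive and 9 a negative fold change, and the median was -0.03. The kinase gene Lats2 (-0.34 ± 0.10) and the TEAD cofactor gene Vgll4 (-0.57 ± 0.20) were lower at an unadjusted edgeR p under 0.05, as were 6.48% of all genes. Tead1 was at -0.19 ± 0.10. Of 21 YAP and TAZ target genes other than Ccn1 and Ccn2, 8 had positive and 13 negative fold changes, with a median of -0.14. Lats2 was counted in this list as well. At an unadjusted edgeR p under 0.05, 3 were higher and 5 lower, against 5.31% and 6.48% of all genes, and none passed after adjustment. The coagulation factor gene F3 was at 0.70 ± 0.13, the stress gene Gadd45a at -0.86 ± 0.18 and the scaffold gene Ajuba at -0.44 ± 0.10. DESeq2 called Amotl2 and F3 higher and Gadd45a lower (1.31% and 1.27% of all genes).

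Serum response factor targets and TGF-beta genes were mixed. Among 10 genes of the SRF and MRTF list none passed edgeR's test, 2 were higher at an unadjusted p under 0.05 (5.31% of all genes), and DESeq2 called the actin-binding gene Tagln higher (1.31% of all genes). Tagln was at 0.63 ± 0.13, Srf itself at 0.56 ± 0.15 and the cofactor gene Fhl2 at 0.24 ± 0.14. The TGF-beta list shares Tgfb2 with the YAP and TAZ list. In it 3 of 11 genes were positive and 8 negative, with a median of -0.14. None passed edgeR's test, 2 were higher and 3 lower at an unadjusted p under 0.05 (5.31% and 6.48% of all genes), and DESeq2 called 1 in each direction (1.31% and 1.27%). The latent TGF-beta binding protein gene Ltbp2 was at -0.60 ± 0.13 and the SMAD repressor gene Skil at -0.28 ± 0.09. In scar fibroblast-list spots the YAP and TAZ target Gadd45a fell by 1.50 on the log2 scale (edgeR adjusted p = 0.0165).

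Immediate early genes, the fast transcriptional response to growth factors, stress and tissue handling, leaned the same way as Ccn1 in whole sections, as did some other lists such as the receptors. Of 13 tested, 11 had positive fold changes, with a median of 0.37. In 10 of the 13 both F592A sections were above both WT sections and in 1, Fos, both were below, against 21.7% and 22.4% of all genes. None passed edgeR's test, 7 were higher at an unadjusted p under 0.05 where 5.31% of all genes were higher and 6.48% lower, and DESeq2 called 4 higher, Atf3, Dusp1, Junb and Nr4a1, where it called 1.31% of all genes higher. The nuclear receptor gene Nr4a1 was at 44.3 and 66.4 CPM in WT and 140 and 152 CPM in F592A, a log2 fold change of 1.40 ± 0.20 (edgeR adjusted p = 0.143). Atf3, a stress-induced transcription factor gene, was at 1.07 ± 0.14 and the phosphatase gene Dusp1 at 0.59 ± 0.12. Within classes edgeR's test called Nr4a1 in scar fibroblast- (2.29 ± 0.21), mural- (2.33 ± 0.22), adipose- (2.24 ± 0.31) and endothelium-list spots (1.54 ± 0.22). Ccn1 is itself an immediate early gene in cultured cells. The part of a general immediate early response in the Ccn1 result was not tested. The median of the list within the 11 classes ran from 0.28 in hair follicle-list to 0.63 in slow muscle-list spots.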

How the data were processed

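The authors deposited unnormalized UMI counts for each section, written by Space Ranger 1.3.0 per the file headers. The submitters' processing notes name the genome build mm10 and Seurat 3. The CCN members, the gene lists and the comparisons were chosen with earlier results of these data known. Spots with at least 500 UMIs were kept. Spot classes came from 15 marker lists (mean log1p of counts per 10000, z-scored over all spots), and a class was tested when every section had at least 30 of its spots, which 11 did. UMIs were summed per section, or per section and class, since spots are not replicates, and tested with edgeR 4.0.16 (quasi-likelihood, TMM, filterByExpr, Benjamini-Hochberg over all genes, threshold 0.05). DESeq2 1.42.0 was an alternative. Same-spot correlations subtract the Poisson part of the variance, whole-section CPM in the comparison of F592A with WT is TMM-scaled, and other CPM is plain unless called TMM-scaled. Named were all members, up to 3 genes of each list by smallest p, and the 3 genes most correlated with each member among those with a mean of at least 10 CPM. Other genes named by DESeq2 calls were chosen after their values were seen. The libraries held 30154873 to 43957617 UMIs and the 5 members 1977 to 18002 UMIs per section. Alternatives are given in the closing section. Some genes that the naming rule would include are not reported here.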

Additional observations from a re-analysis of the deposited data

How the results depend on the processing

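With 2 sections per group, calls moved far more than fold changes. The 13 genes called in whole sections became 5 with RLE scaling, 421 with DESeq2, 546 with no filter on low counts, 4 without mitochondrial, haemoglobin and muscle list genes, 7 without skin-class spots and 0 to 390 without 1 section (0 without F592A 1 and without F592A 2, where edgeR still gave 1441 and 835 genes at an unadjusted p under 0.05). For Ccn1 the edgeR adjusted p was 0.0556 with RLE scaling (log2 1.44), 0.0540 without those list genes (1.44) and 0.0509 without muscle-class spots (1.46), and 0.0041 to 0.420 (1.32 to 1.56) without 1 section. Ccn2 passed with DESeq2 (1.00) and with no filter (1.00, adjusted p = 0.0016), and without 1 section ranged from 0.89 to 1.12. Ccn5 passed with DESeq2 (0.49). Without 1 section Ccn3 ranged from -0.65 to -0.05, Ccn4 from -0.45 to 0.22 and Ccn5 from 0.39 to 0.61. Same-numbered sections did not deviate together (correlation -0.13 over 16347 genes). This value cannot show whether the numbers pair them, because the sections also differed in tissue and sex-linked RNA. A replicate block gave 7 calls in whole sections, 221 within classes and Ccn1 an edgeR adjusted p of 0.124 (1.44). A crossed block, added after seeing the data, gave 189 calls and passed Ccn2 (1.00, adjusted p = 0.0271).

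Within classes the 102 calls became 421 with DESeq2, 2929 with no filter, 14 in the 3 Leiden regions that could be tested and 264 to 3809 without 1 section. The classes called numbered 6, 7 and 0 for Ccn1 with DESeq2, no filter and Leiden regions (3 in the main analysis), and 2, 5 and 0 for Ccn2 (1 in the main analysis). In Leiden regions 4 and 9 Ccn1 was 1.36 ± 0.15 (adjusted p = 0.0502) and 1.83 ± 0.38 (adjusted p = 0.220). With no filter they numbered 3, 1 and 3 for Ccn3, Ccn4 and Ccn5. Without 1 section the ranges were 2 to 9, 0 to 4, 0 to 3, 0 to 3 and 0 to 2 for Ccn1 to Ccn5. In the replicate block the sheath fibroblast-list call of Ccn1 was lost with a fold change of 1.56 as before (adjusted p = 0.0679). The sign of the change, over 44 values per gene that leave out 1 section, turned in 0 for Ccn1, 4 for Ccn2, 5 for Ccn3, 10 for Ccn4 and 10 for Ccn5. Those named ranged from -1.02 to 0.69 (Ccn2, epidermis), -0.28 to 0.76 (Ccn2, hair follicle), -0.13 to 0.91 (Ccn2, slow muscle), -1.83 to 0.54 (Ccn4, epidermis) and -1.76 to 0.18 (Ccn5, epidermis). Ccn5 in scar fibroblast-list spots over the other classes was 0.013 with a class cut of 0.5. The cause of these shifts was not tested. Single deviating sections cannot be recognised with 2 per group.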
